A study of Mus musculus with 63 samples.

Results

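The mitotic G2/M genes described here are 36 genes whose products carry a cell from late G2 phase through mitosis and cytokinesis, chosen by name from the 47517 gene symbols counted by RNA-seq in mouse embryonic stem (ES) and extended pluripotent stem (EPS) cells. They fall into 9 roles: mitotic entry (Ccna2, Ccnb1, Ccnb2, Cdk1, Cdc25b, Cdc25c), mitotic kinases (Plk1, Aurka, Nek2), the chromosomal passenger complex (Aurkb, Birc5, Incenp), the spindle checkpoint (Bub1, Bub1b, Ttk, Mad2l1), centromere and kinetochore (Cenpa, Cenpe, Cenpf, Ndc80, Nuf2), partners of the anaphase-promoting complex (Cdc20, Ube2c), spindle assembly (Kif11, Kif2c, Nusap1, Hmmr, Tpx2), central spindle and cytokinesis (Kif20a, Kif23, Prc1, Racgap1, Ect2, Anln) and chromosome structure (Top2a, Mki67). They were followed across 22 libraries in 10 groups. Of the series' 63 samples, the other 41 hold other assays and were not analysed here. All cells carry the strain label C57BL/6. The ES group (n = 3) was kept in 2i medium and the EPS group (n = 3) in LCDM medium, a culture reported to widen the developmental reach of pluripotent cells, and no construct is labelled for either. EPS cells with a control short hairpin RNA (EPS shCtrl) or a hairpin against Yy1 (EPS shYy1), and ES cells with a control overexpression construct (ES oeCtrl) or one carrying Yy1 (ES oeYy1), had n = 2 each. Lines of the same 4 labels were sampled on day 6 in F4H medium (n = 2 each), a condition whose composition the labels leave out. YY1 is a zinc finger transcription factor. The labels' protocols name 2 supports for the cultures, Matrigel and growth-arrested fibroblast feeders, and do not tie a support to a library. The labels do not say whether replicates came from separate cultures or how many clones a line holds, so p-values measure the spread between these samples only. For the controls of day 6 the construct was read from the titles, since their genotype label is just control.

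Entry into mitosis is driven by cyclin B bound to the kinase Cdk1, which Cdc25 phosphatases switch on. Polo-like and Aurora kinases then build the spindle, the spindle checkpoint holds anaphase until every kinetochore is attached, and the anaphase-promoting complex with Cdc20 destroys cyclin B and securin. The mRNAs of these proteins accumulate in G2 and mitosis, so in bulk RNA their level follows the share of dividing cells and the length of the cell cycle phases as well as transcription. Many of their promoters carry a cell cycle genes homology region, a short element near the start site read by the DREAM and B-MYB/FOXM1 complexes, and CCAAT boxes read by NF-Y. Pluripotent stem cells are known for a short G1 phase and a high share of cells in S, G2 and M phase.

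Promoter windows from RefSeq (build GRCm38.p6, 250 bases before to 50 after the annotated start) were at hand for 30 of the 36 genes. They are shown because the genes were chosen by function and the windows show what many of them share. Stretches of 12 of them, read 5′ to 3′ in the direction of the gene, follow with the element TTTGAA and the box CCAAT in capitals, on either strand (TTCAAA and ATTGG on the other).
Cdk1 (chr10:69352913-69353012, minus strand): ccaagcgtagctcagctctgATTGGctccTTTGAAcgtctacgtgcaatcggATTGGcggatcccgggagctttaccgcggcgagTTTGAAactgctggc
Mki67 (chr7:135716470-135716499, minus strand): agaaTTTGAAccgccgttttggTTTGAAtc
Cdc20 (chr4:118437344-118437373, minus strand): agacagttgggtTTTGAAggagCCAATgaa
Kif11 (chr19:37376351-37376380, plus strand): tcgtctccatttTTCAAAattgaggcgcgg
Top2a (chr11:99024195-99024224, minus strand): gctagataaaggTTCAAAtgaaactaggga
Ube2c (chr2:164769888-164769917, plus strand): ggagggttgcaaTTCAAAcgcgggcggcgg
Ccnb2 (chr9:70421532-70421561, minus strand): gcggcgcggtaTTTGAAtcgcggaccgggc
Cenpa (chr5:30666890-30666919, plus strand): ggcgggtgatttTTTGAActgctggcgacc
Hmmr (chr11:40733411-40733440, minus strand): gttgaggtaaaTTTGAAttcaggcgagctg
Plk1 (chr7:122159453-122159482, plus strand): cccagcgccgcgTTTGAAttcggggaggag
Racgap1 (chr15:99651634-99651663, minus strand): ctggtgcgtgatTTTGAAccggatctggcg
Aurka (chr2:172370521-172370550, minus strand): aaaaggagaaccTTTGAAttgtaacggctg

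These 30 genes have 32 windows, since a few have more than 1 annotated start, and a gene is counted where any of its windows holds the motif. TTTGAA, searched on both strands, was found for 21 of the 30 genes (70.0%), against 20.2% of all 27025 genes with a window. Within 50 bases of the start on either side it was found for 19 of 30 genes (63.3%), against 5.72% of all genes. In the 250 bases before the start alone it was found for 10 of 30 genes (33.3%), against 18.3% of all genes, so many of the matches lay only at or after the annotated start. The variant TTCGAA, which reads the same on both strands and does not overlap the first motif, was found for 4 genes (13.3% against 1.8%), and 23 genes (76.7% against 21.7%) had at least 1 of the pair. CCAAT was found for 23 genes (76.7% against 41.1%). AANATGGC, a core of the YY1 recognition sequence, was found for 3 genes, Bub1, Ndc80 and Racgap1 (10.0% against 6.96% of all genes). Neither TTTGAA nor TTCGAA lay in the windows of Birc5, Ccnb1, Cenpe, Mad2l1, Nek2, Nuf2 and Nusap1. Ccna2, Cdc25c, Aurkb, Incenp, Tpx2 and Kif20a had no window. A match is a description of letters, not evidence of binding.

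Gene counts came to between 13672061 and 20782348 per library, and the lowest count of any of the 36 genes in any library was 197, so none was near the limit of detection. Levels are given as CPM, a gene's count scaled by its library's total of gene counts. Fold changes come from edgeR's quasi-likelihood model, which also applies TMM factors, and a gene is called higher or lower at a Benjamini-Hochberg adjusted p under 0.05 over all genes tested. Yy1 itself, reported first as a check of the labels, stood at 133.9 and 134.1 CPM in EPS shCtrl and at 70.5 CPM in both EPS shYy1 libraries (log2 fold change -0.99, edgeR adjusted p = 4.43e-06). On day 6 the libraries labelled EPS shYy1 held 109.6 to 113.8 CPM against 122.5 to 128.6 in EPS shCtrl, and Yy1 was not called (log2 fold change -0.03, edgeR adjusted p = 0.567), so directions on day 6 are those of the libraries labelled shYy1. Overexpression held at both stages (933.6 to 941.1 against 120.4 to 123.5 CPM, and on day 6 324.5 to 331.5 against 119.5 to 126.0 CPM). The lines also differed in Y-linked genes, whose 4 markers summed to 2.59 to 2.71 CPM in EPS shCtrl, 138.9 to 139.7 in EPS shYy1, 107.9 to 127.9 in ES oeCtrl and 25.6 to 26.6 in ES oeYy1. On day 6 these markers summed to 16.3 to 17.0 CPM in EPS shCtrl and 167 to 175 in EPS shYy1. In ES oeCtrl they then summed to 100.0 to 104 CPM and in ES oeYy1 to 65.8 to 71.2. The sums thus differed between stages within a label too, and the part of this in the day 6 results was not tested. More than the construct therefore separates each pair of lines, and the effect of Yy1 and of the line cannot be told apart. Replicate 3 of ES and of EPS stood apart from the other replicates (chi-square per degree of freedom 24.0 to 34.3, against 5.92 to 6.80 between replicates 1 and 2), as did the EPS shCtrl pair (20.2).

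**Figure D1:**
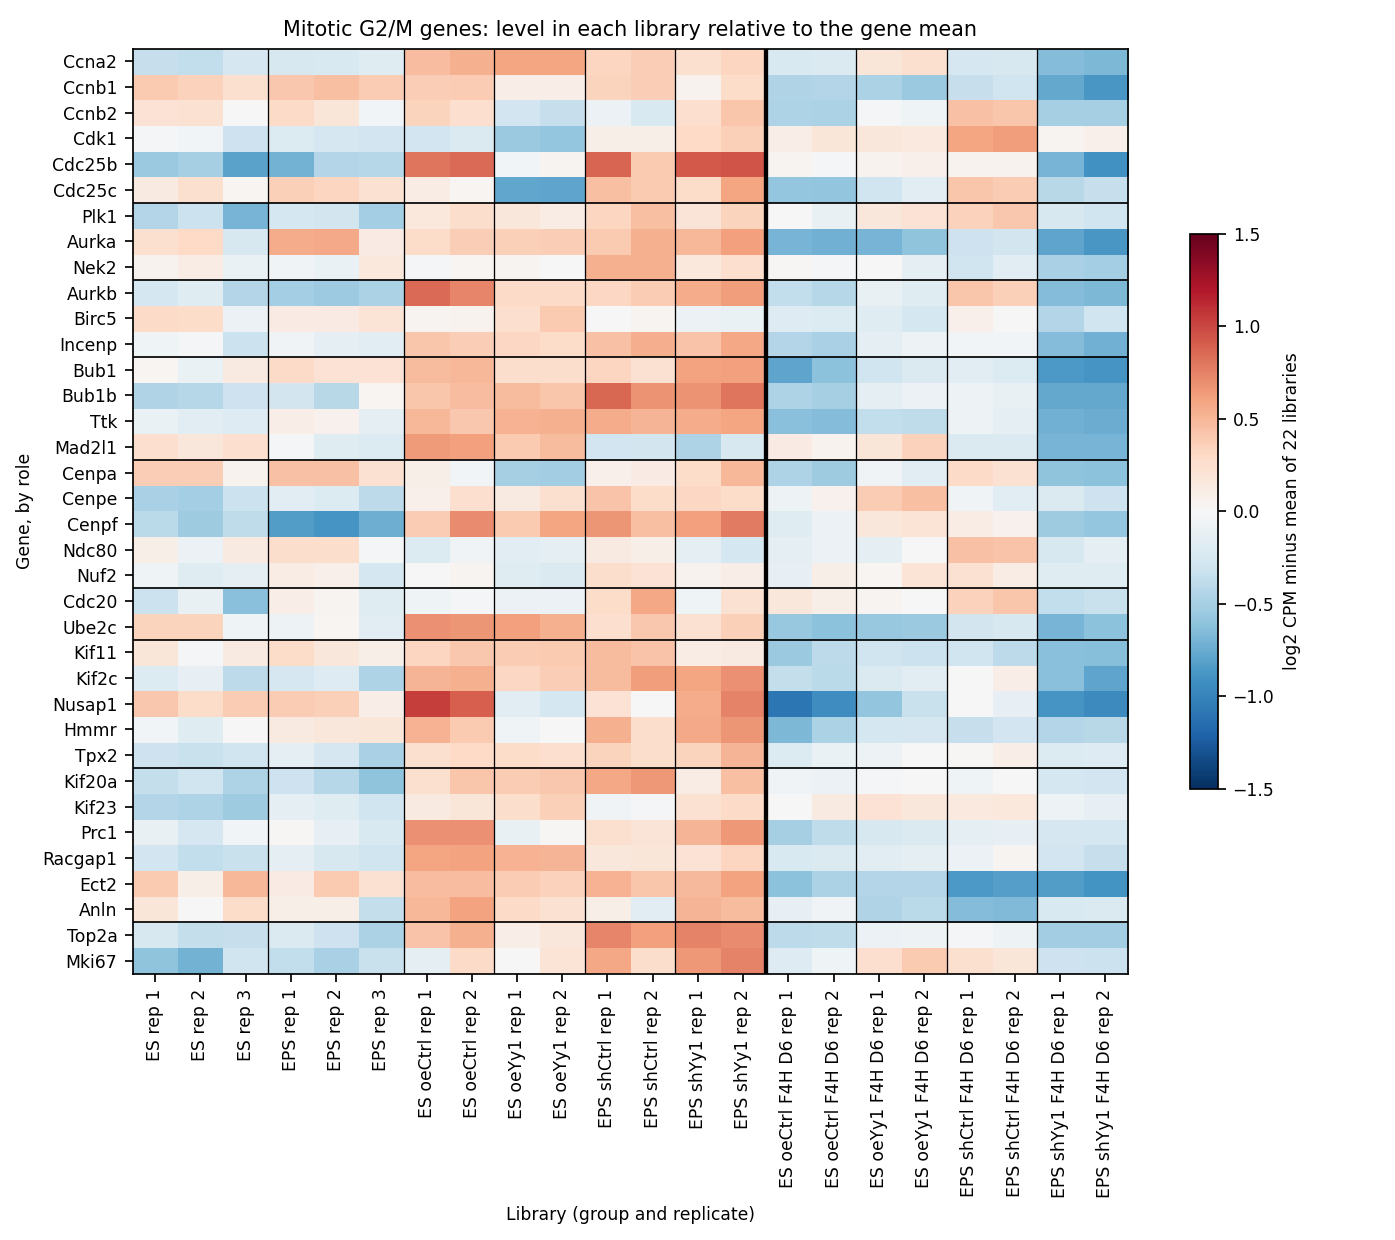
Level of each of the 36 genes (rows, grouped by role) in each of the 22 libraries (columns), as log2 CPM minus the gene's mean over all libraries. Thin lines separate roles and groups, and the thick line separates undifferentiated cells from day 6. Most rows are red in the 4 undifferentiated construct lines and blue in 3 of the day 6 lines, with EPS shCtrl on day 6 mixed and the lowest sums in the day 6 libraries labelled EPS shYy1.

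The summed level of the 36 genes was 5556 ± 159.8 CPM (SD, n = 3) in ES and 5672 ± 281 (n = 3) in EPS, and each undifferentiated construct line lay above both. It was 7707 ± 157 in EPS shCtrl, 8056 ± 397 in EPS shYy1, 7772 ± 209.9 in ES oeCtrl and 6901 ± 73.0 in ES oeYy1 (SD, n = 2 each). On day 6 it was 5842 ± 6.62 in EPS shCtrl, 4251 ± 27.3 in EPS shYy1, 4907 ± 82.0 in ES oeCtrl and 5593 ± 87.2 in ES oeYy1. EPS shYy1 had the lowest mean of the 4 lines on day 6, also with TMM factors in place of gene totals. In bulk samples, fewer dividing cells and less RNA of these genes per cell cannot be told apart. Fibroblast markers, which feeder cells express, summed to 3414 to 6045 CPM in ES, 1081 to 1985 in EPS and 125.4 to 496 in the undifferentiated construct lines, with S100a4 at 0 in all of these groups. Whether feeder RNA bears on the lower sums of ES and EPS was not tested.

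EPS cells against ES cells. Of the 36 genes 4 were higher and 2 lower in EPS cells, and no change reached 2-fold. Bub1, the checkpoint kinase, Cdc20, the activator of the anaphase-promoting complex, Hmmr, a spindle pole protein, and Kif23, a kinesin of the central spindle, rose, while Mad2l1, the checkpoint protein that holds Cdc20, and Cenpf, a kinetochore protein, fell. The background was 13.8% higher and 16.9% lower of the 16440 genes tested (30.6% in either direction), so the share of members called was below it in this fit, and the median log2 fold change of the members was 0.15.

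Kif23 stood at 94.5, 92.7 and 88.6 CPM in the ES libraries and at 117, 113 and 104 in the EPS libraries. The groups did not overlap (log2 fold change 0.34 ± 0.09 (SE), edgeR adjusted p = 0.0111). Hmmr stood at 144, 131 and 148 CPM in ES and 162, 166 and 169 in EPS, also without overlap (log2 fold change 0.30 ± 0.09 (SE), edgeR adjusted p = 0.0138), as for 40.9% of all genes. Without normalization factors its edgeR adjusted p was 0.0547. Bub1 was at 163, 150.0 and 176 CPM in ES and 195, 187 and 186 in EPS (log2 fold change 0.28 ± 0.09 (SE), edgeR adjusted p = 0.0179). Cdc20 stood at 204, 235 and 164 CPM in ES and 273, 262 and 225 in EPS, and replicate 3 of EPS lay below ES replicate 2 (log2 fold change 0.40 ± 0.15 (SE), edgeR adjusted p = 0.0456). The falls were those of Mad2l1, at 161, 153 and 161 CPM in ES and 132, 119.6 and 118 in EPS (log2 fold change -0.29 ± 0.09 (SE), edgeR adjusted p = 0.0256), and of Cenpf, at 136, 124 and 138 CPM in ES and 101, 97.7 and 108 in EPS (log2 fold change -0.31 ± 0.10 (SE), edgeR adjusted p = 0.0269). Ccnb1, Cdk1, Plk1, Aurkb, Top2a and Mki67 were not called, with log2 fold changes of 0.15, -0.06, 0.20, -0.16, 0.05 and 0.20. With replicate number as a block, 9 genes were called higher and 3 lower, Plk1 among them (log2 fold change 0.20, edgeR adjusted p = 0.0458), where 18.1% and 20.8% of all genes were called (38.9% in either direction). Leaving out replicate 3 of both groups, a choice made after seeing that they stand apart, gave 11 higher and 2 lower, that is 36.1% of the members against 15.0% higher and 18.0% lower (32.9% together) of all genes. Leaving out single libraries gave between 2 calls (without EPS replicate 1, and also without EPS replicate 2) and 11 (without EPS replicate 3, where 32.5% of all genes were called), and 3 without ES replicate 1. Of all genes, 1743 were higher and 2171 lower of 16380 without EPS replicate 1, and 1780 and 2190 of 16385 without EPS replicate 2. Without ES replicate 1 these were 1704 and 2279 of 16390. The edgeR adjusted p of Cdc20 reached 0.173 without ES replicate 3, that of Bub1 0.0867 and of Kif23 0.0626 without EPS replicate 1, that of Cenpf 0.0868 without ES replicate 1, that of Mad2l1 0.0834 without EPS replicate 3, and that of Hmmr 0.0544 without ES replicate 2. Fibroblast markers moved with this comparison: 14 of 19 tested were lower in EPS and none higher. So did Y-linked genes, which summed to 63.0 to 75.7 CPM in ES and 14.1 to 25.2 in EPS, with 3 of 4 lower and 0 higher. Their part in the result was not tested.

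The Yy1 hairpin in undifferentiated EPS cells. Of the 36 genes 31 were not called. Nusap1, which bundles spindle microtubules near chromosomes, Ccnb2, a B-type cyclin, and Anln, the cytokinesis scaffold anillin, rose, and Kif11, the kinesin that separates spindle poles, and Nek2, a centrosome kinase, fell. These 3 higher and 2 lower compare with 15.1% and 13.3% of 16440 genes (28.5% in either direction), and the median log2 fold change of the members was 0.00.

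Nusap1 stood at 132 and 114 CPM in EPS shCtrl and at 167 and 191 in EPS shYy1 (log2 fold change 0.48 ± 0.13 (SE), edgeR adjusted p = 0.0116). Ccnb2 stood at 119 and 108 CPM in the control and 151 and 169 with the hairpin (log2 fold change 0.43 ± 0.14 (SE), edgeR adjusted p = 0.028). For Anln the values were 273 and 231 CPM and 365 and 358 (log2 fold change 0.46 ± 0.16 (SE), edgeR adjusted p = 0.0365). None of these pairs of groups overlapped, which held for 65.7% of all genes tested in this comparison. Kif11 was at 264 and 256 CPM in the control and 205 and 209 with the hairpin (log2 fold change -0.39 ± 0.12 (SE), edgeR adjusted p = 0.0174). Nek2 was at 101 and 101 CPM and 77.8 and 82.9 (log2 fold change -0.39 ± 0.11 (SE), edgeR adjusted p = 0.0163). Of the genes given in every comparison, Ccnb1, Cdk1, Plk1, Aurkb and Mki67 had log2 fold changes of -0.24, 0.17, -0.19, 0.18 and 0.21, and Top2a of -0.01, none called. The calls rest on few libraries: without EPS shCtrl replicate 2 none of the 36 genes was called, and without EPS shYy1 replicate 1 or EPS shYy1 replicate 2 only 1 was. Without EPS shCtrl replicate 2 the background fell too, to 14.9% of all genes. It was 1519 higher and 1099 lower of 17245 genes without EPS shYy1 replicate 1, and 1614 and 1089 of 17201 without EPS shYy1 replicate 2. The replicate numbers of these groups did not pair.

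Yy1 overexpression in undifferentiated ES cells. Every called gene fell: 9 of 36, and none rose. The background was 14.8% higher and 17.1% lower of 16440 genes (32.0% in either direction), and the median of the members was -0.10. Nusap1 had the largest change and the only one of at least 2-fold. All libraries of one group lay above the other for 25 of the 36 genes, where 74.4% of all genes did not overlap. Fitting these 4 libraries alone called 1 gene higher and 16 lower, where 28.1% and 29.3% of all genes were called (57.4% in either direction).

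Nusap1 was at 233 and 211 CPM in ES oeCtrl and 102 and 94.3 in ES oeYy1 (log2 fold change -1.18 ± 0.13 (SE), edgeR adjusted p = 4.98e-06). Its locus (chromosome 2, 119618298 to 119650165, GRCm38.p6) overlaps Oip5, and the strand setting of the counting is not stated, so reads of the pair cannot be told apart with certainty. Oip5 moved alike here (log2 fold change -0.79 ± 0.17 (SE), edgeR adjusted p = 0.00149). Cdc25c and Cdc25b, phosphatases that activate Cdk1, fell from 29.6 and 28.0 to 15.9 and 15.9 CPM (log2 fold change -0.86 ± 0.15 (SE), edgeR adjusted p = 3.35e-04) and from 40.4 and 41.8 to 22.4 and 23.8 CPM (log2 fold change -0.83 ± 0.16 (SE), edgeR adjusted p = 7.73e-04). Prc1, which crosslinks the microtubules of the central spindle, fell from 172 and 172 to 99.1 and 108 CPM (log2 fold change -0.74 ± 0.12 (SE), edgeR adjusted p = 2.22e-04). Ccnb2 fell from 160.0 and 151 to 104 and 99.3 CPM (log2 fold change -0.62 ± 0.14 (SE), edgeR adjusted p = 0.00267). Cenpa, the histone H3 variant of centromeres, fell from 152 and 139 to 101 and 99.3 CPM (log2 fold change -0.54 ± 0.15 (SE), edgeR adjusted p = 0.00957). Aurkb, the kinase of the chromosomal passenger complex, fell from 141 and 130.2 to 95.5 and 95.7 CPM (log2 fold change -0.51 ± 0.12 (SE), edgeR adjusted p = 0.00287). Top2a, topoisomerase II alpha, fell from 838 and 896 to 666 and 697 CPM (log2 fold change -0.35 ± 0.13 (SE), edgeR adjusted p = 0.0411), a call lost when any of the 4 libraries was left out (edgeR adjusted p 0.0769 to 0.229). The call of Cenpa was lost without ES oeCtrl replicate 1, ES oeYy1 replicate 1 or ES oeYy1 replicate 2 (edgeR adjusted p 0.0557 to 0.0748). Hmmr was the ninth (log2 fold change -0.49 ± 0.11 (SE), edgeR adjusted p = 0.00183). Ccnb1, Cdk1, Plk1 and Mki67 were not called, with log2 fold changes of -0.29, -0.32, -0.07 and 0.01.

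The control lines, EPS shCtrl against ES oeCtrl. In this pair, which differs in cell state, medium and construct together, 4 genes were higher and 7 lower of 36, where 40.4% of all genes were called (19.7% higher, 20.7% lower). The groups did not overlap for 27 of the 36 genes, against 70.6% of all genes. Mad2l1 was lower in EPS shCtrl, at 111 and 112 CPM against 211 and 208 (log2 fold change -0.93 ± 0.12 (SE), edgeR adjusted p = 8.91e-06), the same direction as in EPS against ES. Nusap1 (log2 fold change -0.87 ± 0.13), Anln (-0.60 ± 0.16), Prc1 (-0.48 ± 0.12), Ccnb2 (-0.47 ± 0.14), Aurkb (-0.46 ± 0.12) and Racgap1, the centralspindlin GTPase activator (-0.44 ± 0.11), were the other genes called lower. Nek2 (0.51 ± 0.11), Cdc20 (0.47 ± 0.18), Cdk1 (0.32 ± 0.12) and Bub1b, the checkpoint protein BubR1 (0.31 ± 0.11), were called higher. Of the genes called in EPS against ES, only Mad2l1 and Cdc20 were called here, both in the same direction. Kif23 (123 and 127 CPM against 141 and 145) and Bub1 (200 and 189 CPM against 222 and 226) lay lower in EPS shCtrl, opposite to EPS against ES, and were not called. Hmmr and Cenpf were not called either. Leaving out single libraries gave 6 to 9 calls, the fewest without EPS shCtrl replicate 2, and 7 without ES oeCtrl replicate 1. Of all genes, 2401 were higher and 2565 lower of 17246 without EPS shCtrl replicate 2. Without ES oeCtrl replicate 1 these were 2001 and 2459 of 17282, against 3244 and 3402 of 16440 with every library. Cdk1 (edgeR adjusted p 0.0583 to 0.23) and Bub1b (0.0516 to 0.186) lost their calls without any 1 of the 4 libraries, Cdc20 without EPS shCtrl replicate 2 (edgeR adjusted p = 0.376) or either ES oeCtrl library, Ccnb2 without ES oeCtrl replicate 1 (0.0675) or EPS shCtrl replicate 2, and Anln without EPS shCtrl replicate 2 (0.0524) or ES oeCtrl replicate 2. Ccnb1, Plk1, Top2a and Mki67 were not called (-0.04, 0.16, 0.17 and 0.31 on the log2 scale). These controls also enter the hairpin and overexpression comparisons, so the values of the 3 comparisons are not independent.

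Day 6 of F4H against undifferentiated cells. Most mitotic genes fell in every line. In EPS shCtrl 2 rose and 25 fell (background 37.5% and 36.6% of 17207 genes, 74.1% in either direction). In EPS shYy1 none rose and 35 fell (background 37.9% and 37.4%, 75.3% in either direction). In ES oeCtrl 1 rose and 28 fell (37.1% and 35.9%, 73.0% in either direction), and in ES oeYy1 5 rose and 24 fell (35.7% and 36.9%, 72.7% in either direction). Median log2 fold changes were -0.60, -0.84, -0.74 and -0.34, where the median of all genes lay between -0.03 and 0.03. The stages did not overlap for 30, 35, 32 and 34 of the 36 genes in these lines, against 84.6%, 88.6%, 86.5% and 87.6% of all genes. Without normalization factors 4 rose and 22 fell in EPS shCtrl, where 41.7% and 32.3% of all genes did and their median shifted by 0.14. Called falls of 20 genes were shared by all 4 lines, 35 genes fell in at least 1 line, and Ndc80, a kinetochore protein that binds microtubules, was called in none. The share of all genes was not computed for these joint counts, and the shares of single lines are not their background, so they are a description only. Pluripotency markers summed to 4609 to 5816 CPM in undifferentiated cells and to 536 to 799 on day 6, and 8 or 9 of 10 trophoblast markers tested were higher in each line. Fibroblast markers were higher too (16, 17, 18 and 16 of 19 tested), and their part in the result was not tested.

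**Figure D2:**
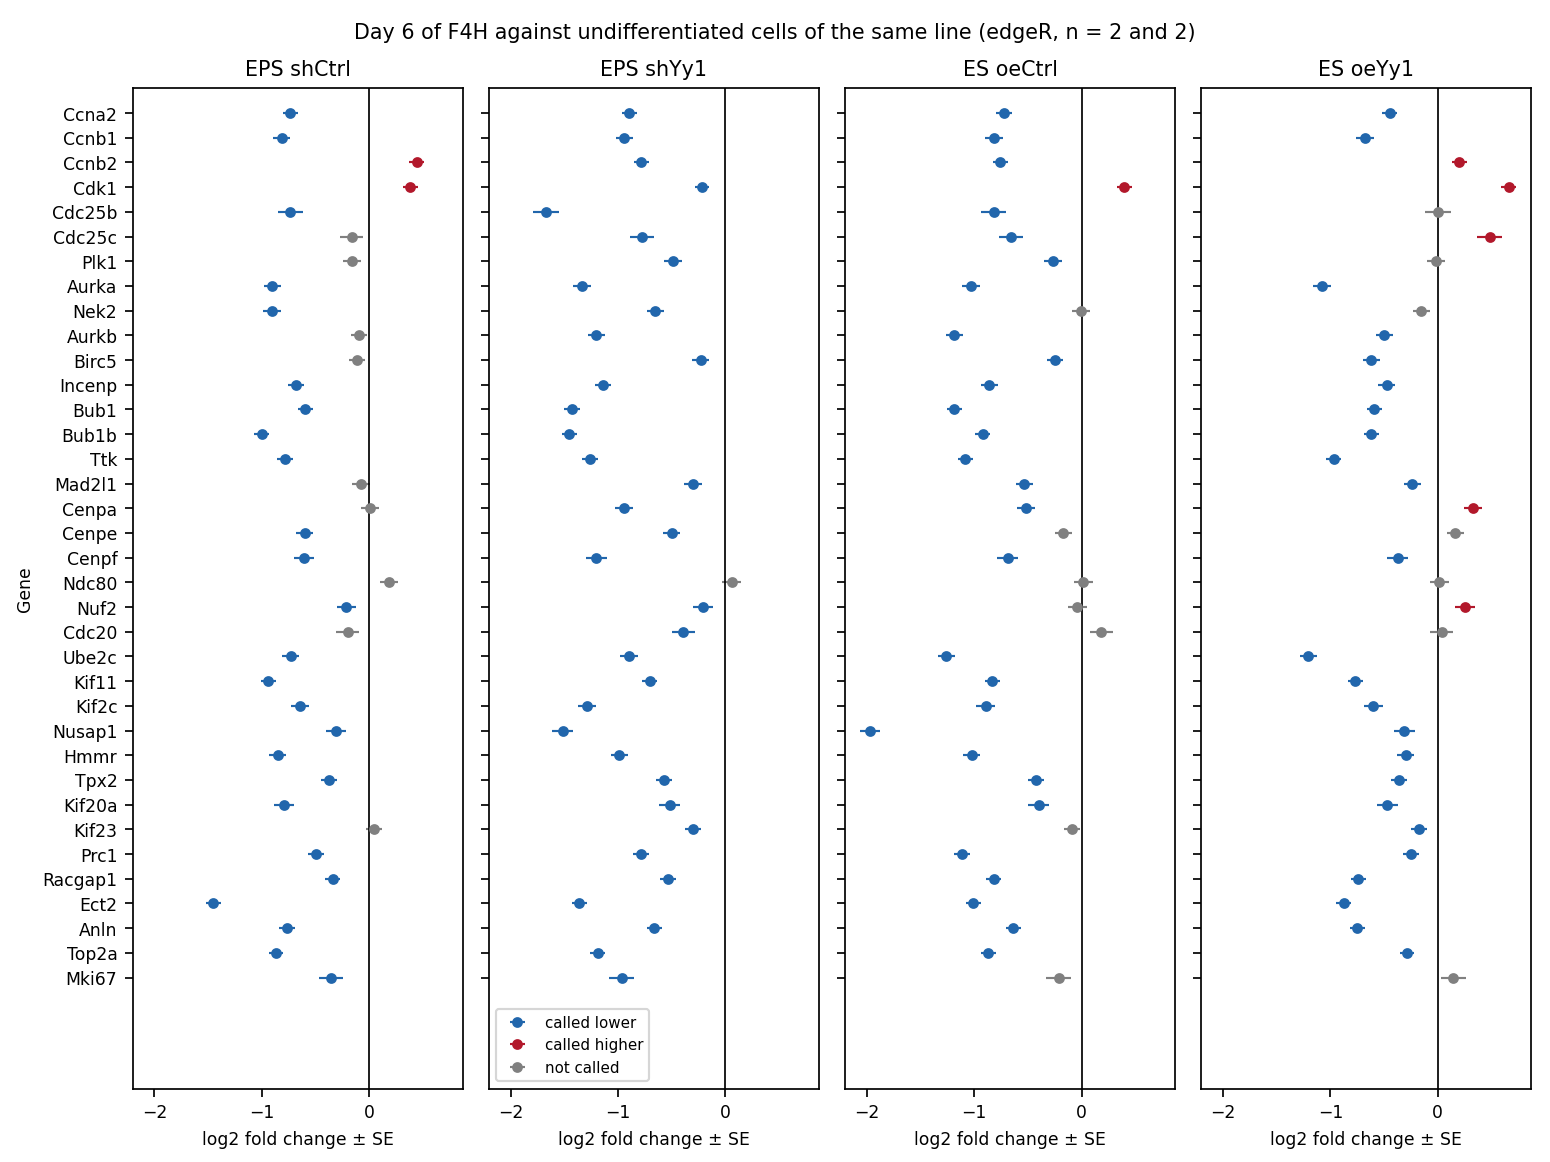
Log2 fold change with its standard error (horizontal axis) of each of the 36 genes (vertical axis) on day 6 of F4H against undifferentiated cells of the same line, in 4 panels, from edgeR with 2 libraries a group. Blue points were called lower, red higher and grey not called. All called points of EPS shYy1 are on the left of 0, while Cdk1 is on the right in the other 3 lines.

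Among genes of mitotic entry, Ccnb1, the main B-type cyclin, fell in all lines. Its levels on day 6 were 271 and 281 CPM in EPS shCtrl, 202 and 188 in EPS shYy1, 253 and 254 in ES oeCtrl and 248 and 234 in ES oeYy1, against 435 and 445, 359 and 418, 444 and 449 and 368 and 368 before. The log2 fold changes were -0.81 ± 0.08, -0.94 ± 0.08, -0.82 ± 0.08 and -0.68 ± 0.08 (SE), and day 6 did not overlap with undifferentiated cells in any line. Cdk1, the kinase that cyclin B activates, went the other way in 3 lines. It stood at 239.7 and 245 CPM in EPS shCtrl on day 6 against 169 and 169 before (log2 fold change 0.39 ± 0.07 (SE), edgeR adjusted p = 3.20e-05). In ES oeCtrl it rose from 129.6 and 136 to 170.4 and 179 CPM (log2 fold change 0.40 ± 0.07 (SE), edgeR adjusted p = 2.56e-05), and in ES oeYy1 from 107 and 106 to 178 and 176 CPM (log2 fold change 0.66 ± 0.07 (SE), edgeR adjusted p = 2.60e-08). In EPS shYy1 it fell from 194 and 203 to 163 and 167 CPM (log2 fold change -0.22 ± 0.07 (SE), edgeR adjusted p = 0.00715), a call lost without EPS shYy1 replicate 2 (edgeR adjusted p = 0.0682) or day 6 replicate 1. The cyclin and its kinase therefore had opposite signs in EPS shCtrl, ES oeCtrl and ES oeYy1. Ccnb2 rose in EPS shCtrl (log2 fold change 0.45 ± 0.07 (SE), edgeR adjusted p = 6.73e-06) and ES oeYy1 (log2 fold change 0.20 ± 0.07 (SE), edgeR adjusted p = 0.0151) and fell in EPS shYy1 (log2 fold change -0.78 ± 0.07 (SE), edgeR adjusted p = 1.96e-09) and ES oeCtrl (log2 fold change -0.76 ± 0.07 (SE), edgeR adjusted p = 3.27e-09). Cdc25b fell in EPS shYy1 to 14.3 and 12.3 CPM from 43.7 and 44.5, the largest fall of any of the 36 genes in that line (log2 fold change -1.67 ± 0.12 (SE), edgeR adjusted p = 4.78e-11). Cdc25c rose in ES oeYy1 (log2 fold change 0.48 ± 0.12 (SE), edgeR adjusted p = 1.00e-03), fell in EPS shYy1 and ES oeCtrl and was not called in EPS shCtrl.

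Of the mitotic kinases, Aurka, which matures centrosomes, fell in all 4 lines, with changes of -0.90, -1.33, -1.03 and -1.08 on the log2 scale in EPS shCtrl, EPS shYy1, ES oeCtrl and ES oeYy1. Plk1, which acts from entry to cytokinesis, was called lower in EPS shYy1 (log2 fold change -0.49 ± 0.09 (SE), edgeR adjusted p = 2.85e-05) and ES oeCtrl (log2 fold change -0.26 ± 0.08 (SE), edgeR adjusted p = 0.00862) and was not called in EPS shCtrl (-0.16) or ES oeYy1 (-0.01). The ES oeCtrl call of Plk1 was lost without ES oeCtrl replicate 2 or its day 6 replicate 2 (edgeR adjusted p = 0.098 and 0.113). Nek2 fell in EPS shCtrl (log2 fold change -0.90 ± 0.08 (SE), edgeR adjusted p = 1.70e-09) and EPS shYy1 and was not called in either ES line. Aurkb was at 105 and 101 CPM on day 6 in EPS shCtrl against 97.4 and 102 before and was not called (log2 fold change -0.10 ± 0.07 (SE), edgeR adjusted p = 0.246). Here the CPM, which carry no TMM factor, and the fold change differ in sign. It fell in EPS shYy1 from 116 and 122 to 50.1 and 49.3 CPM (log2 fold change -1.20 ± 0.08 (SE), edgeR adjusted p = 8.17e-12) and in ES oeCtrl from 141 and 130.2 to 60.9 and 58.1 CPM (log2 fold change -1.18 ± 0.08 (SE), edgeR adjusted p = 8.64e-12), and in ES oeYy1 as well (log2 fold change -0.50 ± 0.08 (SE), edgeR adjusted p = 6.59e-06).

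The checkpoint kinases Bub1 and Ttk (Mps1) and the checkpoint protein Bub1b fell in every line. Bub1 changed by -0.60, -1.43, -1.18 and -0.59 on the log2 scale in the same order of lines, Bub1b by between -1.45 (EPS shYy1) and -0.62 (ES oeYy1), and Ttk by -0.78, -1.26, -1.08 and -0.97. At the centromere, Cenpa rose in ES oeYy1 (log2 fold change 0.33 ± 0.08 (SE), edgeR adjusted p = 0.00141), fell in EPS shYy1 and ES oeCtrl and was not called in EPS shCtrl. Nuf2, the partner of Ndc80, rose in ES oeYy1 (log2 fold change 0.25 ± 0.09 (SE), edgeR adjusted p = 0.0164; 0.145 without its day 6 replicate 2) and fell in both EPS lines. Ube2c, the ubiquitin-conjugating enzyme of the anaphase-promoting complex, fell in all lines, with its largest change in ES oeCtrl (log2 fold change -1.26 ± 0.08 (SE), edgeR adjusted p = 9.54e-12). Cdc20 fell in EPS shYy1 (log2 fold change -0.39 ± 0.11 (SE), edgeR adjusted p = 0.00323) and was not called in the other lines.

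All 5 spindle assembly genes fell in every line. Nusap1 in ES oeCtrl went from 233 and 211 to 53.6 and 59.6 CPM (log2 fold change -1.97 ± 0.10 (SE), edgeR adjusted p = 5.98e-14), the largest change of any of the 36 genes in these 4 comparisons. In EPS shYy1 it fell from 167 and 191 to 61.8 and 58.8 CPM (log2 fold change -1.52 ± 0.09 (SE), edgeR adjusted p = 4.22e-12), and it also fell in EPS shCtrl (log2 fold change -0.31 ± 0.09 (SE), edgeR adjusted p = 0.0047) and ES oeYy1 (log2 fold change -0.31 ± 0.09 (SE), edgeR adjusted p = 0.00575). Kif11 changed by -0.94, -0.71, -0.83 and -0.77 on the log2 scale in EPS shCtrl, EPS shYy1, ES oeCtrl and ES oeYy1. Of the 6 genes of the central spindle and cytokinesis 5, 6, 5 and 6 fell in these lines and none rose. Prc1 in ES oeCtrl (log2 fold change -1.11 ± 0.08 (SE), edgeR adjusted p = 1.68e-11) and Anln in ES oeYy1 (log2 fold change -0.75 ± 0.07 (SE), edgeR adjusted p = 4.27e-09) were among them. Of the same role, Ect2, the exchange factor that activates RhoA at the cell equator, fell in every line and changed by -1.45 on the log2 scale in EPS shCtrl, -1.36 in EPS shYy1, -1.01 in ES oeCtrl and -0.88 in ES oeYy1. Top2a, which untangles chromosomes, fell from 1028 and 953 to 605 and 591 CPM in EPS shCtrl (log2 fold change -0.87 ± 0.07 (SE), edgeR adjusted p = 1.95e-10) and also in EPS shYy1 (-1.19 ± 0.07 on the log2 scale), ES oeCtrl (-0.87 ± 0.07) and ES oeYy1 (log2 fold change -0.29 ± 0.07 (SE), edgeR adjusted p = 6.60e-04). Mki67, the proliferation marker Ki-67, fell in EPS shCtrl (log2 fold change -0.35 ± 0.11 (SE), edgeR adjusted p = 0.0096) and EPS shYy1 (log2 fold change -0.96 ± 0.12 (SE), edgeR adjusted p = 5.60e-07) and was not called in ES oeCtrl (-0.21) or ES oeYy1 (0.14). The EPS shCtrl call of Mki67 was lost without EPS shCtrl replicate 1 (edgeR adjusted p = 0.284) or its day 6 replicate 2 (0.0533).

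The libraries labelled shYy1 on day 6. Mitotic genes were lower than in EPS shCtrl across nearly all roles: 1 was higher and 29 lower, against 30.9% and 30.4% of 15927 genes (61.3% in either direction), and the median was -0.38. All 6 genes of mitotic entry, all 4 checkpoint genes and all 3 genes of the chromosomal passenger complex were lower. Without normalization factors 33 were lower, as were 39.4% of all genes, and the median of all genes itself shifted by -0.13, while the share of higher among all called genes moved from 50.4% to 37.0%. The day 6 EPS shCtrl libraries had TMM factors of 1.11 and 1.12.

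Aurkb stood at 105 and 101 CPM in EPS shCtrl and 50.1 and 49.3 in EPS shYy1 (log2 fold change -0.91 ± 0.06 (SE), edgeR adjusted p = 1.39e-20). Ccnb2 stood at 171 and 169 CPM and 90.0 and 89.5 (log2 fold change -0.79 ± 0.05 (SE), edgeR adjusted p = 2.58e-21). Cenpa was at 173 and 167 CPM and 94.2 and 93.2 (log2 fold change -0.73 ± 0.05 (SE), edgeR adjusted p = 2.32e-19). The groups did not overlap in any of these, as in 81.1% of all genes. Nusap1 fell from 114 and 104 to 61.8 and 58.8 CPM (log2 fold change -0.72 ± 0.07 (SE), edgeR adjusted p = 2.65e-12), Cdc25b from 23.9 and 24.0 to 14.3 and 12.3 CPM (log2 fold change -0.71 ± 0.10 (SE), edgeR adjusted p = 1.25e-08), and Cdc25c from 36.6 and 35.7 to 20.5 and 21.5 CPM (log2 fold change -0.65 ± 0.09 (SE), edgeR adjusted p = 2.18e-09). Ccnb1, Cdk1, Plk1, Top2a and Mki67 were called lower too, with log2 fold changes of -0.36, -0.42, -0.51, -0.33 and -0.39. Anln was the exception, at 219 and 221 CPM against 163 and 163 (log2 fold change 0.57 ± 0.04 (SE), edgeR adjusted p = 5.74e-17). Yy1 mRNA did not pass the test in this pair, as given above, and trophoblast markers summed to 6409 to 6489 CPM in EPS shYy1 against 3340 to 3345 in EPS shCtrl, with 7 of 10 tested higher, 3 lower and Prl3d1 at 0 in EPS shCtrl. Their part in the result was not tested.

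Yy1 overexpression on day 6. Mitotic genes were mostly higher than in ES oeCtrl: 20 rose and 3 fell, against 20.3% and 21.6% of 15927 genes (41.9% in either direction), and the median was 0.14. All 4 checkpoint genes rose. No change reached 2-fold, and the groups did not overlap for 30 of the 36 genes, against 67.8% of all genes.

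Nusap1 was at 53.6 and 59.6 CPM in ES oeCtrl and 75.2 and 90.4 in ES oeYy1 (log2 fold change 0.51 ± 0.07 (SE), edgeR adjusted p = 1.15e-07), with Oip5 again moving alike (0.51 ± 0.11 on the log2 scale). The pair did not move alike in every comparison. On day 6 against undifferentiated cells, Oip5 rose in EPS shCtrl (log2 fold change 0.47 ± 0.13 (SE), edgeR adjusted p = 0.00225), where Nusap1 fell. Oip5 was not called in that response of ES oeYy1 (0.24, edgeR adjusted p = 0.107) or with the undifferentiated hairpin (0.10, edgeR adjusted p = 0.69). Mki67 was at 267 and 292 CPM in ES oeCtrl and 363 and 398 in ES oeYy1 on day 6 (log2 fold change 0.41 ± 0.05 (SE), edgeR adjusted p = 9.38e-11). Bub1 was at 92.8 and 104 CPM and 130.2 and 138 (log2 fold change 0.40 ± 0.05 (SE), edgeR adjusted p = 6.56e-09). Ccna2, the cyclin of S and G2 phase, was at 196 and 198 CPM and 259.9 and 272 (log2 fold change 0.40 ± 0.04 (SE), edgeR adjusted p = 5.97e-11). Cenpe, the kinesin that moves chromosomes to the spindle equator (log2 fold change 0.39 ± 0.05 (SE), edgeR adjusted p = 6.54e-09), Ccnb2 (log2 fold change 0.38 ± 0.05 (SE), edgeR adjusted p = 1.14e-08), Top2a (log2 fold change 0.26 ± 0.04 (SE), edgeR adjusted p = 4.11e-07), Aurkb (log2 fold change 0.21 ± 0.06 (SE), edgeR adjusted p = 0.00379) and Plk1 (log2 fold change 0.21 ± 0.05 (SE), edgeR adjusted p = 3.74e-04) rose as well. Anln fell from 236 and 248 to 188 and 195 CPM (log2 fold change -0.38 ± 0.04 (SE), edgeR adjusted p = 2.61e-10), and so did Cdc20 (log2 fold change -0.16 ± 0.05 (SE), edgeR adjusted p = 0.00377) and Ccnb1 (log2 fold change -0.11 ± 0.05 (SE), edgeR adjusted p = 0.0416). Cdk1 was not called (-0.02). The calls of Ccnb1 (edgeR adjusted p = 0.318 without ES oeYy1 day 6 replicate 2), Cdc20 (0.105 without ES oeCtrl day 6 replicate 1) and Aurkb (0.0519 without ES oeCtrl day 6 replicate 2) rest on those libraries. Trophoblast markers summed to 3378 to 3527 CPM in ES oeYy1 against 5627 to 5676 in ES oeCtrl, with 4 of 10 tested higher, 5 lower and Prl3d1 at 0 in ES oeYy1, and their part in the result was not tested.

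The control lines on day 6. Against ES oeCtrl, EPS shCtrl had 19 of 36 genes higher and 7 lower, where 64.1% of all genes were called (31.6% higher, 32.4% lower). The groups did not overlap for 33 of the 36 genes, against 82.2% of all genes. Cdc25c (0.84 ± 0.09), Nusap1 (0.80 ± 0.07), Ccnb2 (0.74 ± 0.05), Aurkb (0.64 ± 0.06), Cenpa (0.60 ± 0.05) and Ndc80 (0.40 ± 0.06) had the largest rises on the log2 scale. Anln (-0.72 ± 0.04), Mad2l1 (-0.46 ± 0.05), Ect2 (-0.45 ± 0.05), Nek2 (-0.37 ± 0.06), Cenpe (-0.24 ± 0.05) and Ccna2 (-0.17 ± 0.04) had the largest falls. Cdk1, Plk1, Top2a and Mki67 were called higher (0.32, 0.28, 0.19 and 0.19), and Ccnb1 was not called (-0.02). Without normalization factors 27 were higher and 4 lower (41.5% and 24.8% of all genes), the median of all genes shifted by 0.15, and the share of higher among all called genes moved from 49.4% to 62.6%. Ccna2 (edgeR adjusted p = 0.682) and Cenpe (0.104) were then not called. Markers of other cell types also differed in this pair: trophoblast markers summed to 3340 to 3345 CPM in EPS shCtrl against 5627 to 5676 in ES oeCtrl, 8 of 10 pluripotency markers were lower and 2 higher, and 7 of 9 endoderm markers tested were higher and 2 lower. Their part in the result was not tested.

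**Figure D3:**
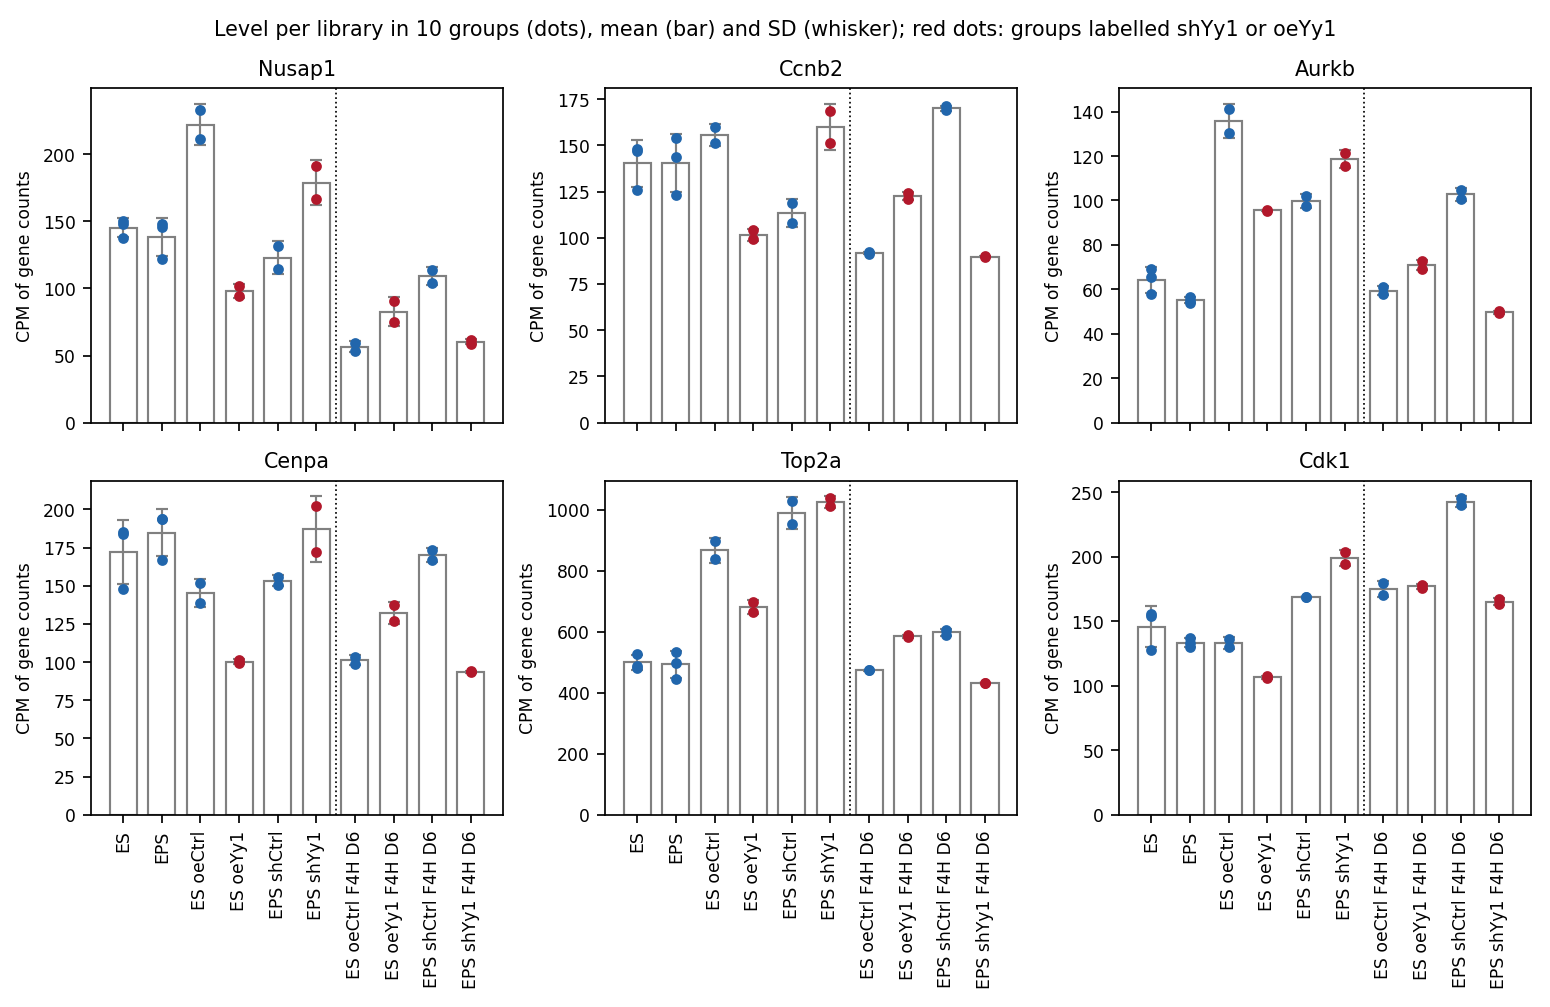
CPM (vertical axis, from 0) of 6 genes in 10 groups (horizontal axis), with each library as a dot, the group mean as a bar and the SD as a whisker. Red dots are groups labelled shYy1 or oeYy1, and the dotted line separates undifferentiated cells from day 6. Nusap1 and Ccnb2 are lower in ES oeYy1 than in ES oeCtrl before F4H and higher on day 6, and the reverse holds for EPS shYy1 against EPS shCtrl.

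The differences between lines before F4H and on day 6. Several mitotic genes differed between the same pair of lines with opposite sign before F4H and on day 6, which was tested in 1 model of 16 libraries, so a change need not equal that of the separate fits to the last digit. Yy1 itself did not keep its difference between stages. It was lower in EPS shYy1 before F4H and not called on day 6 (log2 fold change -0.03, edgeR adjusted p = 0.567), a change of 0.95 (edgeR adjusted p = 1.67e-07), and its excess in ES oeYy1 shrank by a log2 change of -1.60 (edgeR adjusted p = 1.56e-10). The values below are therefore those of libraries by their labels. The difference of EPS shYy1 from EPS shCtrl was more negative on day 6 for 19 genes and more positive for none, against 20.1% and 21.4% of 17207 genes (41.5% in either direction). That of ES oeYy1 from ES oeCtrl was more positive for 16 and more negative for 1, against 17.7% and 19.9% (37.6% in either direction). Without normalization factors the first count was 29 (26.8% of all genes), the median of all genes shifted by -0.19, and the share of higher among all called genes moved from 51.5% to 35.6%. The second count fell to 11 more positive and none more negative without ES oeYy1 day 6 replicate 2. Of all genes, 2602 of 18121 were then more positive and 2706 more negative, against 3052 and 3423 of 17207 with every library. These tests reuse the libraries of the comparisons above.

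For Nusap1 the log2 difference of EPS shYy1 from EPS shCtrl went from 0.48 ± 0.13 before F4H to -0.72 ± 0.07 on day 6 (change -1.21 ± 0.13, edgeR adjusted p = 3.23e-07). That of ES oeYy1 from ES oeCtrl went from -1.18 ± 0.13 to 0.51 ± 0.07 (change 1.66 ± 0.13, edgeR adjusted p = 7.22e-09). All 4 differences of Nusap1 were called. Oip5, which overlaps Nusap1, changed between stages in the same directions (-0.98 ± 0.18, edgeR adjusted p = 1.99e-04, and 1.27 ± 0.19, edgeR adjusted p = 1.70e-05). For Ccnb2 the shYy1 lines differed by 0.43 ± 0.14 and then -0.79 ± 0.05 (change -1.23 ± 0.10, edgeR adjusted p = 6.07e-09), and the oeYy1 lines by -0.62 ± 0.14 and then 0.38 ± 0.05 (change 0.96 ± 0.10, edgeR adjusted p = 2.27e-07), again with all 4 differences called. The calls in EPS shYy1 before F4H were weak. With 1 library left out the difference of Ccnb2 there was 0.35 to 0.50, and its call was lost whichever library was left out. That of Nusap1 was 0.38 to 0.57, and its call was lost in some of these fits. Aurkb changed between stages by -1.10 ± 0.11 for the shYy1 label (edgeR adjusted p = 8.17e-08) and 0.69 ± 0.11 for oeYy1 (edgeR adjusted p = 4.13e-05), though its difference in EPS shYy1 before F4H was not called (0.18). In the same order Cenpa changed by -0.96 ± 0.12 (edgeR adjusted p = 1.37e-06) and 0.84 ± 0.12 (edgeR adjusted p = 9.67e-06), and Cdc25b by -0.94 ± 0.17 (edgeR adjusted p = 1.10e-04) and 0.82 ± 0.17 (edgeR adjusted p = 5.34e-04). Among the genes given in every comparison, Ccnb1 was not called in either test (-0.13 and 0.14), and for oeYy1 neither were Plk1 (0.25) and Mki67 (0.36). Anln kept its sign: EPS shYy1 differed by 0.46 ± 0.16 before F4H and 0.57 ± 0.04 on day 6. ES oeYy1 differed by -0.30 ± 0.16 and then -0.38 ± 0.04, and neither change between stages was called.

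**Figure D4:**
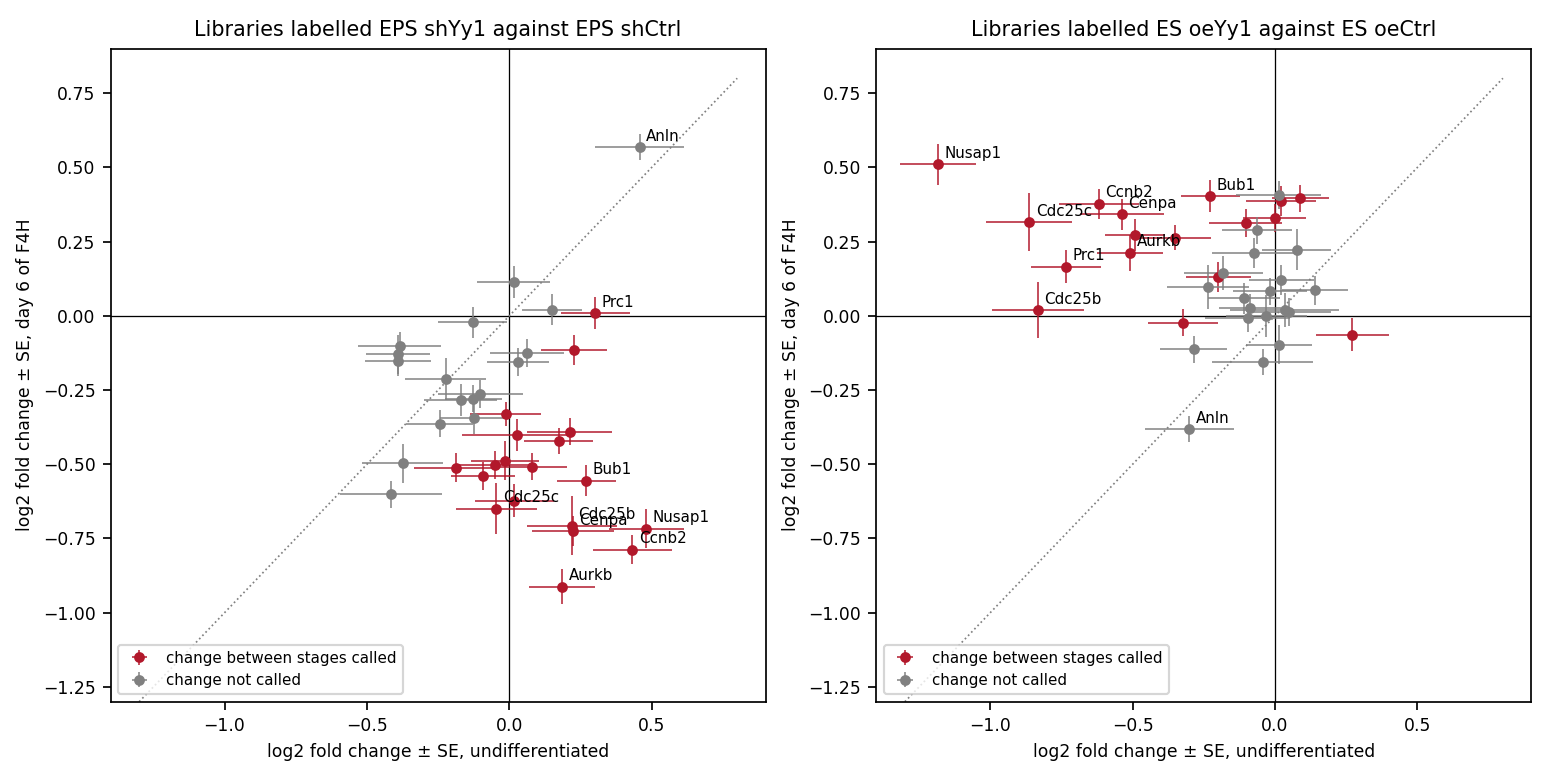
Difference of the libraries labelled EPS shYy1 from EPS shCtrl (left) and of ES oeYy1 from ES oeCtrl (right) for each of the 36 genes, as log2 fold change with its standard error before F4H (horizontal axis) and on day 6 (vertical axis). Red points were called as changing between stages and the dotted line marks equal values. The hairpin's own target, Yy1, was not called on day 6. On the left 19 points are red and lie below the line, and on the right 17 are red, 16 of them above it.

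The day 6 response also differed between the control lines, EPS shCtrl minus ES oeCtrl, for 16 genes, 11 more positive and 5 more negative, where 48.7% of all genes differed. Nusap1 (1.66 ± 0.13), Ccnb2 (1.20 ± 0.10), Aurkb (1.09 ± 0.11), Prc1 (0.62 ± 0.11), Bub1 (0.59 ± 0.10) and Ube2c (0.53 ± 0.11) had the largest positive differences on the log2 scale. Oip5, which overlaps Nusap1, differed in the same direction (1.49 ± 0.18, edgeR adjusted p = 7.64e-07). Nek2 (-0.90 ± 0.11), Ect2 (-0.44 ± 0.10), Cenpe (-0.43 ± 0.11), Kif20a (-0.39 ± 0.13) and Cdc20 (-0.38 ± 0.15) were the negative ones. The difference of Cdc20 was lost without any of 7 of the 8 libraries (edgeR adjusted p up to 0.309), and that of Kif20a without any of 4 (up to 0.122). Plk1 (0.11), Mki67 (-0.14), Cdk1, Ccnb1 and Top2a were not called. Without normalization factors 19 were more positive and 3 more negative (27.3% and 21.7% of all genes), with the median of all genes shifted by 0.14.

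Other genes of the cell cycle. On day 6, falls extended beyond these 36 genes. Each count that follows is to be read beside the shares of all genes given above for the same comparison, 35.7% to 37.9% higher and 35.9% to 37.4% lower in these 4 lines. Of 49 other G2/M genes, 7 were higher and 35 lower in EPS shCtrl, 5 and 38 in EPS shYy1, 3 and 37 in ES oeCtrl and 8 and 33 in ES oeYy1. Cep55, which recruits the abscission machinery, fell and changed by -2.38 on the log2 scale in EPS shCtrl and -2.36 in ES oeCtrl. Of 26 other kinetochore genes 17, 20, 20 and 15 fell in the same order of lines and 5, 4, 4 and 5 rose. Of 8 condensin subunits 7, 8, 8 and 7 fell and none rose. Of 41 genes of S phase and replication 36, 39, 33 and 35 fell, so the falls were not limited to G2/M genes. Of 17 subunits and regulators of the anaphase-promoting complex 9, 9, 8 and 8 fell and 7, 5, 6 and 7 rose. Of 15 cell cycle inhibitors 11, 11, 9 and 11 rose and 2, 2, 5 and 2 fell. In the day 6 libraries labelled EPS shYy1, 34 of the 49 other G2/M genes were lower than in EPS shCtrl and 4 higher, as were 30 and 3 of the 41 S phase genes (all genes 30.4% lower, 30.9% higher). In ES oeYy1 on day 6, 15 of the other G2/M genes were higher and 5 lower than in ES oeCtrl, and 16 and 3 of the S phase genes (all genes 20.3% higher, 21.6% lower). Before F4H 5 of the other G2/M genes were higher and 5 lower in EPS shYy1, fewer than the background of 15.1% and 13.3%. In ES oeYy1 1 was higher and 10 were lower, against 14.8% and 17.1%, so the falls were near the background.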

How the data were processed

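The deposited tables give whole-number read counts per gene, 1 table per library (22 tables), which the authors deposited without normalization. Per the submitters' processing notes the series used CASAVA, Bowtie2 2.3.2, mm10 and GRCm38.p6, without their role for RNA-seq, and the counting tool and strand setting are not given in the sources used here. Per the labels' protocols, RNA was extracted with TRIzol and libraries were made with an mRNA kit. Summary lines that name no gene were left out of library sizes. They held 5.61 to 8.62% (no feature), 3.70 to 5.32% (ambiguous) and 5.45 to 6.66% (not unique) of reads. Genes that overlap another gene (such as Nusap1) or have a named pseudogene (Ccnb2) are uncertain to that extent.

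edgeR 4.0.16 (R 4.3.3) was fitted with TMM factors, filterByExpr and the robust quasi-likelihood F-test, in separate models over 14 undifferentiated, 8 day 6 and 16 hairpin and overexpression libraries. They gave 11 comparisons between groups and 3 tests of a difference between effects, with Benjamini-Hochberg adjustment over all genes of a comparison. All 36 genes passed the filter. DESeq2 1.42.0, other factors, no filter, a replicate block, the compared libraries alone, tables without X and Y genes and leaving out each library were the alternatives. The models were tested on simulated data, in which far fewer genes changed, in random directions, than were called here. That test therefore does not bear on the choice of normalization factors. Same-numbered ES and EPS libraries deviated together (correlations 0.181, 0.235 and 0.448), and every such correlation passed the set limit of 0.1, so their numbers were taken as pairing, on the data alone. Differently numbered libraries 1 and 2 correlated alike (0.216 and 0.22), so the numbers set apart replicate 3 only.

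The genes, lists and tests were chosen with earlier results of these data known. Printed are mainly Mki67, Cdk1, Ccnb1, Plk1, Aurkb and Top2a, up to 6 called genes of largest change in each direction, and, of the genes that the rule picks by smallest p from the other lists, a few. A rule to name genes by level per kilobase was not applied, because transcript lengths were not at hand. Hmmr and Racgap1 in single comparisons, and the genes named by role on day 6, were added after their values were seen.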

Additional observations from a re-analysis of the deposited data

Results flagged for a closer look

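Differences that changed between stages or between lines, by a test of that change in edgeR, are listed here on the log2 scale. The difference of EPS shYy1 from EPS shCtrl on day 6, where Yy1 itself was not called, minus that before F4H was -1.23 for Ccnb2, -1.21 for Nusap1, -1.10 for Aurkb, -0.96 for Cenpa, -0.94 for Cdc25b, -0.83 for Bub1, -0.61 for Mki67, -0.60 for Cdk1, -0.33 for Plk1 and -0.32 for Top2a. The change of Mki67 was lost without EPS shCtrl replicate 2 (edgeR adjusted p = 0.062), and that of Plk1 without EPS shYy1 replicate 2 (0.154), its day 6 replicate 2 (0.0909) or EPS shCtrl day 6 replicate 2 (0.128).

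For ES oeYy1 from ES oeCtrl the same change was 1.66 for Nusap1, 1.14 for Cdc25c, 0.96 for Ccnb2, 0.86 for Prc1, 0.84 for Cenpa, 0.82 for Cdc25b, 0.69 for Aurkb, 0.58 for Top2a and 0.26 for Cdk1, and -0.37 for Birc5 (survivin, of the chromosomal passenger complex). That of Cdk1 was lost when any of 6 of the 8 libraries was left out (edgeR adjusted p up to 0.142), and that of Birc5 without ES oeYy1 replicate 2 (0.12) or its day 6 replicate 2 (0.0651).

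The day 6 response of EPS shCtrl minus that of ES oeCtrl was 1.66 for Nusap1, 1.20 for Ccnb2, 1.09 for Aurkb, 0.62 for Prc1, 0.59 for Bub1 and 0.53 for Ube2c, and -0.38 for Cdc20, -0.39 for Kif20a, -0.43 for Cenpe, -0.44 for Ect2 and -0.90 for Nek2.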

How the results depend on the processing

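Of 182 pairs of a gene and a comparison picked by the naming rule 146 were called, and 113 kept call and direction in every alternative run. None of these called pairs turned direction, and the other printed pairs are not in this count. The rule takes mainly called genes of the largest change, which favours calls and kept directions, so these counts do not describe the remaining genes. With ES and EPS libraries taken as paired by number, the replicate block called 12 of the 36 genes (and 38.9% of all genes tested, the share given in brackets from here on). The other groups' numbers did not pair (correlations of at most 0.062), though the block was applied to them too, and the same fit gave 11 calls for the undifferentiated hairpin (37.5%). In EPS against ES, fitting only the compared libraries called 3 genes, leaving out 1 library 2 to 11, and leaving out replicate 3 of both 13 (32.9%). The fit of only the compared libraries called 1773 of 14613 genes higher and 2162 lower. The undifferentiated hairpin had 8 calls without factors (26.8%) and 0 to 4 with 1 library left out. It had 4 without EPS shCtrl replicate 1, where 2613 of 17222 genes were higher and 2240 lower. Overexpression before F4H had 17 with only the compared libraries (57.4%), the controls 6 to 9 and the stage difference of overexpression 11 to 18 with 1 library left out, and that of the shYy1 lines 29 without factors (41.6%). The controls had 9 without EPS shCtrl replicate 1, where 2933 of 17222 genes were higher and 3212 lower. The stage difference of overexpression had 18 without ES oeCtrl replicate 1, where 2621 of 18135 genes were more positive and 2893 more negative. With TMM factors in place of gene totals, the summed level moved to 5837 CPM in ES, 6307 in EPS, and on day 6 to 4197 in EPS shYy1, 5241 in EPS shCtrl and 5332 in ES oeYy1. The causes were not tested.

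Genes not called changed sign as follows on the log2 scale. Without factors the values were -0.0191 (Top2a, EPS against ES), 0.0499 (Top2a, undifferentiated hairpin), 0.0178 (Cdk1, day 6 overexpression), 0.12 (Ccnb1, day 6 controls, then called at an edgeR adjusted p of 0.0127), 0.0438 (Aurkb, EPS shCtrl response), 0.0544 (Plk1, ES oeYy1 response) and 0.13 (Cdk1, difference of control responses). Plk1 in the ES oeYy1 response was 0.039 with RLE factors and by DESeq2, 0.044 without a filter, 0.0173 without X and Y genes and 0.0176 with only the compared libraries. In the difference of control responses Ccnb1 was -0.0132 and Top2a -0.0133 with RLE factors and by DESeq2, and Cdk1 was 0.0095 without a filter and 0.014 with only the compared libraries. Top2a with the undifferentiated hairpin was 0.0089 with only the compared libraries. With 1 library left out the ranges were -0.0361 to 0.16 (Top2a, EPS against ES), -0.0387 to 0.0035 (Top2a, undifferentiated hairpin), -0.20 to 0.26 (Mki67, undifferentiated overexpression), -0.11 to 0.0223 (Ccnb1, undifferentiated controls), -0.0534 to 0.0089 (Cdk1, day 6 overexpression), -0.22 to 0.0197 (Plk1) and -0.13 to 0.0413 (Aurkb) in the EPS shCtrl response, -0.42 to 0.0305 (Mki67, ES oeCtrl response) and -0.0154 to 0.0676 (Plk1, ES oeYy1 response). For the difference of control responses they were -0.0382 to 0.10 (Ccnb1), -0.0647 to 0.0693 (Cdk1), -0.0621 to 0.069 (Top2a) and -0.38 to 0.0715 (Mki67).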

Other observations

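Regulators that transcribe G2/M genes were followed as a list of 23. Mybl2 (B-MYB), which joins the MuvB core at the promoters of mitotic genes, stood at 958 CPM on average in undifferentiated EPS shCtrl and 57.7 on day 6 (log2 fold change -4.19 ± 0.08 (SE), edgeR adjusted p = 1.70e-20). In ES oeCtrl it went from 870.5 to 85.6 CPM (log2 fold change -3.34 ± 0.08 (SE), edgeR adjusted p = 2.67e-19). Of the 23 genes, 17, 14, 15 and 11 fell and 4, 4, 5 and 6 rose in EPS shCtrl, EPS shYy1, ES oeCtrl and ES oeYy1, where 74.1%, 75.3%, 73.0% and 72.7% of all genes were called and 36.6%, 37.4%, 35.9% and 36.9% fell. In EPS against ES, 3 rose and 4 fell, among them Foxm1, the other activator of mitotic genes (log2 fold change -0.39 ± 0.09 (SE), edgeR adjusted p = 0.00283), at the background of 30.6%. With overexpression before F4H, 3 of the 23 rose and 5 fell, where 14.8% of all genes were higher and 17.1% lower. Of the MuvB subunits, Lin9 fell (log2 fold change -0.99 ± 0.13 (SE), edgeR adjusted p = 2.93e-05), while Lin54 was among the genes that rose.

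Of 5 G1 cyclins and kinases 1, 3, 3 and 2 rose and 0, 1, 1 and 2 fell on day 6 in the same order of lines. Cdkn1a, the p21 inhibitor of cyclin-dependent kinases, was higher with the hairpin before F4H, at 231 against 91.4 CPM (log2 fold change 1.27 ± 0.15 (SE), edgeR adjusted p = 8.57e-06), and lower with overexpression, at 145 against 320.1 CPM (log2 fold change -1.15 ± 0.15 (SE), edgeR adjusted p = 1.74e-05). Of 15 cell cycle inhibitors 7 rose and 1 fell with the hairpin, and none rose and 11 fell with overexpression, where 28.5% and 32.0% of all genes were called in either direction. Between the control lines, EPS shCtrl against ES oeCtrl, 3 of the 15 were higher and 12 lower, where 40.4% of all genes were called. That pair shares its control libraries with the hairpin and overexpression comparisons.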
